A study of Mus musculus with 8 samples.

Results

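Integrins and selectins are the adhesion molecules with which leukocytes slow down, arrest and leave the blood, and the genes described here encode 5 integrin chains of leukocytes (Itgb1, Itga4, Itgb7, Itgal and Itgb2), the endothelial ligands Vcam1 and Icam1, and the selectins Sele and Selp. They were chosen by name, as a listed set. Of the 9 listed genes, 8 have a row among the 17921 genes of the count table, and Sele is not analysed here. Their transcripts were measured in 20778 single cells of 8 mouse lung grafts, and were summed per mouse within each labelled cell type, structural cell cluster and B cell cluster.

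All grafts were left lungs of male donors, transplanted orthotopically into male C57BL/6 (B6) recipients without immunosuppression and taken 1 month later. In the 5 B6→B6 mice the donor was also B6, so graft and recipient were matched. In the 3 HLA→B6 mice the donor, named HLA, was a C57BL/6 mouse with the Tg(HLA-A2.1)1Enge transgene, which encodes a human HLA-A2.1 molecule, and these grafts develop bronchiolitis obliterans syndrome (BOS), a chronic rejection of the airways. The donor strain is the only labelled difference between the groups, and the animals' ages are not given in the sources used here. A graft can hold cells of the donor together with cells that entered from the recipient, so members read in leukocytes and in vessels may stem from different animals. The origin of the cells was not determined here.

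Integrins are pairs of an alpha and a beta chain, and each chain can have several partners. Itga4 pairs with Itgb1 to form VLA-4, which binds Vcam1 and fibronectin, and with Itgb7 to form the receptor for the mucosal addressin Madcam1. Itgal pairs with Itgb2 to form LFA-1, whose ligand is Icam1. Selectins on endothelium and platelets bind sugars on leukocytes and mediate the rolling that comes before integrin-dependent arrest. Sele is made by activated endothelium, whereas Selp is stored in granules of platelets and of venous endothelium. In lung, the alveolar capillaries are known to rely less on selectins for leukocyte arrest than the vessels of other organs.

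In the mouse genome (GRCm38, GENCODE gene models), Itgb1 lies on the forward strand at chr8:128685654-128733200, Itga4 on the forward strand at chr2:79255426-79333123, and Itgb7 on the reverse strand at chr15:102215995-102231944. Itgal is at chr7:127296260-127335138 and Itgb2 at chr10:77530252-77565708, both on the forward strand. Vcam1 lies on the reverse strand at chr3:116109949-116129688 and Icam1 on the forward strand at chr9:21015985-21028817. Sele (chr1:164048234-164057677) and Selp (chr1:164115264-164150026) are neighbours on the forward strand. All are protein-coding. The ends of Itga4, Vcam1, Icam1 and Selp overlap or contain genes of the opposite strand (Cerkl at the 3′ end of Itga4, and antisense or noncoding genes at the others), and the sources used here do not state whether the counting used strand.

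RefSeq promoter sequence was found for 6 of the 9 listed genes. The 170 bases before the RefSeq start are shown for Itga4 and Itgb7, partner chains that both passed the test in alveolar macrophages below, and for Icam1 and Selp, the endothelial ligand and the selectin. They are written 5′ to 3′ on the strand of the gene (GRCm38.p6), with capitals marking matches to the letters searched. Itga4 is the forward strand of chr2:79255256-79255425, Itgb7 the reverse strand of chr15:102231936-102232105, Icam1 the forward strand of chr9:21015770-21015939, and Selp the forward strand of chr1:164115094-164115263.
Itga4: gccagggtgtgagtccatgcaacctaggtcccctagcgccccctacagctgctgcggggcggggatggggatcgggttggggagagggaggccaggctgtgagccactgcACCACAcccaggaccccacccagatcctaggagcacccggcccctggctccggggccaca
Itgb7: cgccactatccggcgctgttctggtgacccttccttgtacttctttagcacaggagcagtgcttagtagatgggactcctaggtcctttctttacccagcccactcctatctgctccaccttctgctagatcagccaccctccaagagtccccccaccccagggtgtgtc
Icam1: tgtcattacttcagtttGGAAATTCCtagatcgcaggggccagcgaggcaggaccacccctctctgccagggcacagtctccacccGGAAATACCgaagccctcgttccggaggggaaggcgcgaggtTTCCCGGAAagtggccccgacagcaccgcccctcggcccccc
Selp: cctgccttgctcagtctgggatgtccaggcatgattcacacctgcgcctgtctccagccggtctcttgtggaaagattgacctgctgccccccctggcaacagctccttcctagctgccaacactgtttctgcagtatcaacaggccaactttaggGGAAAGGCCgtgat

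The letters searched, on both strands of the 250 bases before each start, were GGNNNTTCC (a core of NF-κB sites), TTCNNNGAA (the palindrome bound by STAT factors), TGTGGT (the core of RUNX sites) and TATAAA (the TATA box). Of 32851 promoters in the RefSeq table, 15.7% held the first, 7.02% the second, 14.0% the third and 12.4% the fourth. Icam1 held the NF-κB letters at -153 and, on the reverse strand, at -84, and the STAT letters at -42. Positions are counted from the start to the first base of the match. Itga4 held the RUNX letters at -60 and Selp the NF-κB letters at -14, both on the reverse strand. The upstream sequence of Itgb7 held none of the 4. In the sequences not shown, Itgb1 held the NF-κB letters at -164, and Sele held them at -145 overlapping the STAT letters at -140, with a TATA box at -49. These matches describe the sequence only and were not related to the counts.

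The 8 libraries held 868 to 6544 cells and 1669076 to 12445769 unique molecular identifiers (UMIs) each, with a median of 1356 to 1948 UMIs per cell. Before the results, 3 features of these libraries have to be stated. Pairs of libraries shared cell barcodes, up to 160 between B6→B6 2 and HLA→B6 2, which is 11.9% of the smaller library, and B6→B6 1, 2, 3 and HLA→B6 2 formed a linked set. Several structural clusters did not carry the genes of their names: clusters 1 and 2, labelled epithelial, held endothelial genes with Epcam close to 0, and clusters 4, 6, 7 and 10 held genes of red cells, T cells, platelets, and B or red cells. The cells labelled alveolar macrophages also differed in makeup between the groups, as given beside that comparison. Levels are counts per 1000000 UMIs (CPM) of the cells summed in 1 mouse, in mice with at least 10 cells of the population, and are given as mean ± SD over mice. Such levels describe the labelled populations and were not tested between them, because the labels were drawn from the same counts.

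Itgb1, the beta chain shared by most integrins that bind matrix, was the most widely spread member. It was at 352 ± 69.2 CPM (n = 8) in NK cells and 314 ± 106 (n = 8) in structural cells, levels whose order changed from mouse to mouse. Mast cells were at 308 ± 258 in the 3 mice that held enough of them and T cells at 213 ± 60.8 (n = 8), whereas B cells held 48.5 ± 39.4 (n = 8), below alveolar macrophages (161 ± 24.1) in 8 of 8 mice. Among structural clusters, Itgb1 was highest in cluster 7, which carried platelet genes, at 1035 ± 207 (n = 5), above cluster 1 (497 ± 128) in 5 of 5 mice that had both. The endothelial clusters 0, 1, 2 and 5 and cluster 3, which carried the fibroblast genes Col1a1 and Col1a2 beside endothelial genes, lay close together between 417 and 497 CPM on average.

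Its partner Itga4 was a leukocyte gene. The level was 265 ± 74.0 CPM (n = 8) in NK cells and 247 ± 50.1 (n = 8) in monocytes, and monocytes were above T cells (145 ± 44.5) in 8 of 8 mice. Alveolar macrophages held 46.4 ± 15.9 (n = 8) and structural cells 5.85 ± 3.69 (n = 8). Within structural cells, 42.2% of the Itga4 UMIs came from cluster 6, the cluster that carried T cell genes. Itgb7, the other partner of Itga4, was at 349 ± 122 CPM (n = 8) in T cells and 316 ± 137 (n = 8) in myeloid cells, and 47.5% of all its UMIs were in T cells. Mast cells had the highest mean, 730 ± 262, but only 3 mice held enough of them. NK cells (255 ± 43.3) were above B cells (160 ± 25.8), and B cells above monocytes (124 ± 36.8), in 8 of 8 mice each. NK cells held both chains, at 265 CPM of Itga4 and 255 of Itgb7 on average, whereas mast cells held the beta chain Itgb7 with only 8.54 ± 14.8 CPM of Itga4 (n = 3).

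The chains of LFA-1 followed a different order. Itgal was highest in monocytes at 408 ± 94.6 CPM (n = 8), followed by the cells labelled leukocytes (219 ± 85.9, n = 7), NK cells (215 ± 27.4, n = 8) and alveolar macrophages (198 ± 69.4, n = 8), and the order of these last 3 changed between mice. T cells held 105 ± 16.3 (n = 8), above myeloid cells (38.5 ± 19.7) in 8 of 8 mice. Itgb2, the beta chain common to all leukocyte-specific beta 2 integrins, was at 722 ± 122 (n = 8) in NK cells, 550 ± 83.3 (n = 8) in monocytes and 489 ± 97.1 (n = 8) in alveolar macrophages. Alveolar macrophages held 42.1% of all Itgb2 UMIs. B cells were low in both chains, at 20.4 ± 9.99 CPM of Itgal and 62.7 ± 17.7 of Itgb2 (n = 8).

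The ligands lay mostly outside lymphocytes. Vcam1 was at 62.4 ± 56.0 CPM (n = 8) in structural cells and 47.5 ± 72.8 (n = 8) in alveolar macrophages, and every other labelled type with 10 cells in at least 2 mice averaged at most 3.16 CPM. By UMIs pooled over both groups, alveolar macrophages held 53.0% and structural cells 43.4% of all Vcam1. In B6→B6 mice structural cells held 305 of its UMIs and alveolar macrophages 41, and in HLA→B6 mice they held 176 and 547. In structural cells Vcam1 was concentrated in cluster 5, which carried the venous genes Vwf, Slc6a2 and Ackr1. It was at 858 ± 553 CPM there (n = 7), above cluster 3 (87.0 ± 107) in 6 of 6 mice. The Car4-rich cluster 2 and the platelet-gene cluster 7 held 0 Vcam1 UMIs. Icam1 was broader, at 197 ± 106 (n = 8) in structural cells and 104 ± 24.5 (n = 8) in NK cells. Its highest structural clusters were cluster 2 at 647 ± 311 (n = 8) and cluster 5 at 330 ± 104 (n = 7), level with cluster 8 at 330 ± 10.3 (n = 2). The cluster richest in Icam1 thus held no Vcam1. Selp, with 78 UMIs over all cells, had 59.0% of them in structural cells. Cluster 5 held 89.9 ± 67.8 CPM (n = 7) and cluster 7 held 72.0 ± 98.4 (n = 5), the venous and the platelet genes' clusters, and every other structural cluster with 10 cells in at least 2 mice averaged under 1 CPM. The value of cluster 7 rests on at most 2 Selp UMIs per mouse.

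**Figure D1:**
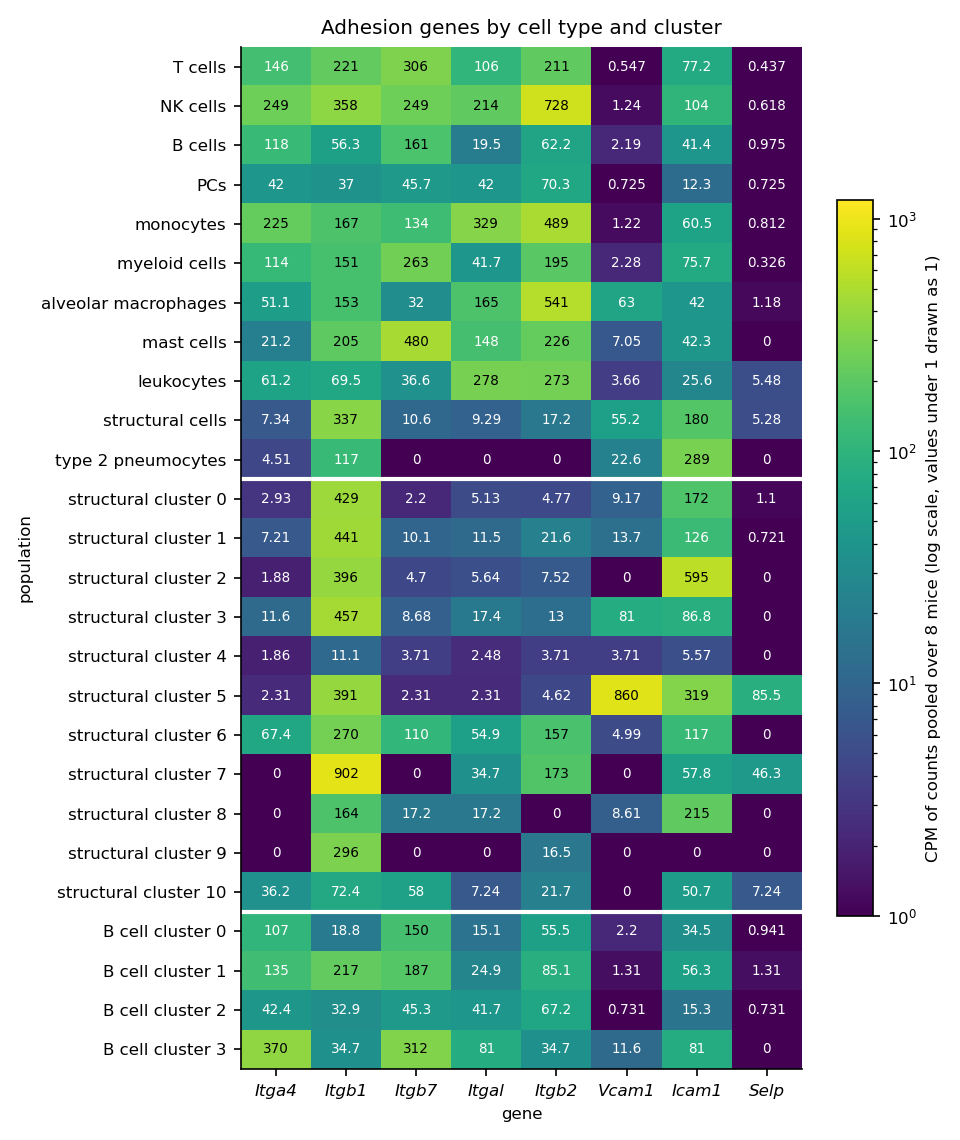
Level of the 8 measured members in each labelled cell type, structural cluster and B cell cluster, drawn as a colour for the CPM of counts pooled over the 8 mice (log scale, values under 1 drawn as 1). Vcam1 and Selp stand out in structural cluster 5, Icam1 in structural cluster 2, and Itgb2 in NK cells, whereas Itga4 is highest in the small B cell cluster 3 on 32 UMIs.

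The share of cells in which a UMI was found did not follow the level for every gene. At a common depth of 1000 UMIs per cell, Vcam1 was found in 10.5%, 5.05% and 0.847% of alveolar macrophages of HLA→B6 1, 2 and 3 and in 0 to 1.89% of those of B6→B6 mice. Itgb7 was found in 0.913%, 6.21% and 1.72% against 0 to 2.05%, so only HLA→B6 2 was above all controls. Itga4 was found in 5.84 to 6.99% of these cells in HLA→B6 mice and 2.55 to 3.97% in B6→B6 mice. For Itgb2 the shares were 36.6 to 44.7% and 30.4 to 35.7%. T cells, which are not known to make Vcam1, had a UMI of it in 0.1% of cells without thinning. The 2 chains of VLA-4 were found together in 3.66% of T cells, where the product of the separate shares is 2.39%, whereas for Itga4 with Itgb7 the share was 3.35% against 3.28%. For Itgal with Itgb2 it was 14.3% against 11.97% in monocytes and 8.86% against 9.23% in NK cells. Cells of 1 library differ in kind and free RNA adds to such shares, so they are given as a description.

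The groups were compared within each population by edgeR's quasi-likelihood F test on sums per mouse, with the Benjamini-Hochberg adjustment over all genes tested and an adjusted p under 0.05 as the threshold. In 14 populations, 61 pairs of a member and a population had enough counts to be tested. The threshold was passed in 4 of them, all in alveolar macrophages. Outside alveolar macrophages 0 of 54 pairs passed by edgeR, 5 had an unadjusted p under 0.05, and DESeq2 also called 0.

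Cells labelled alveolar macrophages held more Itga4, Itgb2, Itgb7 and Vcam1 in HLA→B6 than in B6→B6 mice by the edgeR test. Itgb1, Itgal and Icam1 did not pass. The makeup of the cells under this label differed between the groups, as given below. Itga4 was at 26.4, 33.4, 46.8, 40.5 and 32.7 CPM in B6→B6 1 to 5 and at 63.2, 58.0 and 69.9 in HLA→B6 1 to 3. Each HLA→B6 mouse was above each B6→B6 mouse, and the log2 fold change was 0.99 (SE 0.20, edgeR adjusted p = 0.0132). It passed without each mouse in turn (adjusted p 0.0172 to 0.0457). Itgb2 was at 392, 426, 443, 450 and 442 CPM in B6→B6 mice and 480, 662 and 618 in HLA→B6 mice. The groups did not overlap for Itgb2 either, HLA→B6 1 lying nearest to the controls, and the log2 fold change was 0.68 (SE 0.16, edgeR adjusted p = 0.0228). The call for Itgb2 was lost, with an adjusted p of 0.109 without HLA→B6 2, 0.0542 without B6→B6 1 and 0.0509 without B6→B6 4.

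Itgb7 was at 13.2, 20.9, 12.2, 8.55 and 0 CPM in B6→B6 1 to 5 and at 14.2, 62.3 and 30.8 in HLA→B6 1 to 3. HLA→B6 1 lay within the control range, and the log2 fold change was 2.11 (SE 0.60, edgeR adjusted p = 0.0431). Vcam1 was at 6.59, 31.3, 40.7, 1.80 and 0 CPM in B6→B6 mice and 220, 63.2 and 16.8 in HLA→B6 mice. HLA→B6 1 and 2 were above all controls, and HLA→B6 3 was within their range. The log2 fold change of Vcam1 was 3.13 (SE 0.89, edgeR adjusted p = 0.0423). The call for Itgb7 was lost without B6→B6 1 (adjusted p = 0.0782) or without B6→B6 5 (0.0646). That for Vcam1 was lost with DESeq2 (0.173), and without HLA→B6 1 the log2 fold change was 2.02 (adjusted p = 0.190). It was also lost without HLA→B6 2 (0.0618) or without B6→B6 1, 4 or 5 (0.0785 to 0.103).

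In the same cells Itgb1 had a log2 fold change of 0.09 (adjusted p = 0.764), Icam1 of 0.43 (0.327) and Itgal of -0.43 (0.372) by the edgeR test. Itgal was at 140 to 281 CPM in B6→B6 mice and 74.3 to 193 in HLA→B6 mice, and it passed with the linked library set as a block (log2 fold change -0.65, adjusted p = 0.0485). Selp, at 0 to 8.14 CPM, was too low to be tested. These counts are to be read against a wide background, since 12.3% of all 5798 genes tested passed in alveolar macrophages, 369 higher and 343 lower in HLA→B6 mice. Of the 7 members tested, 4 passed.

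**Figure D2:**
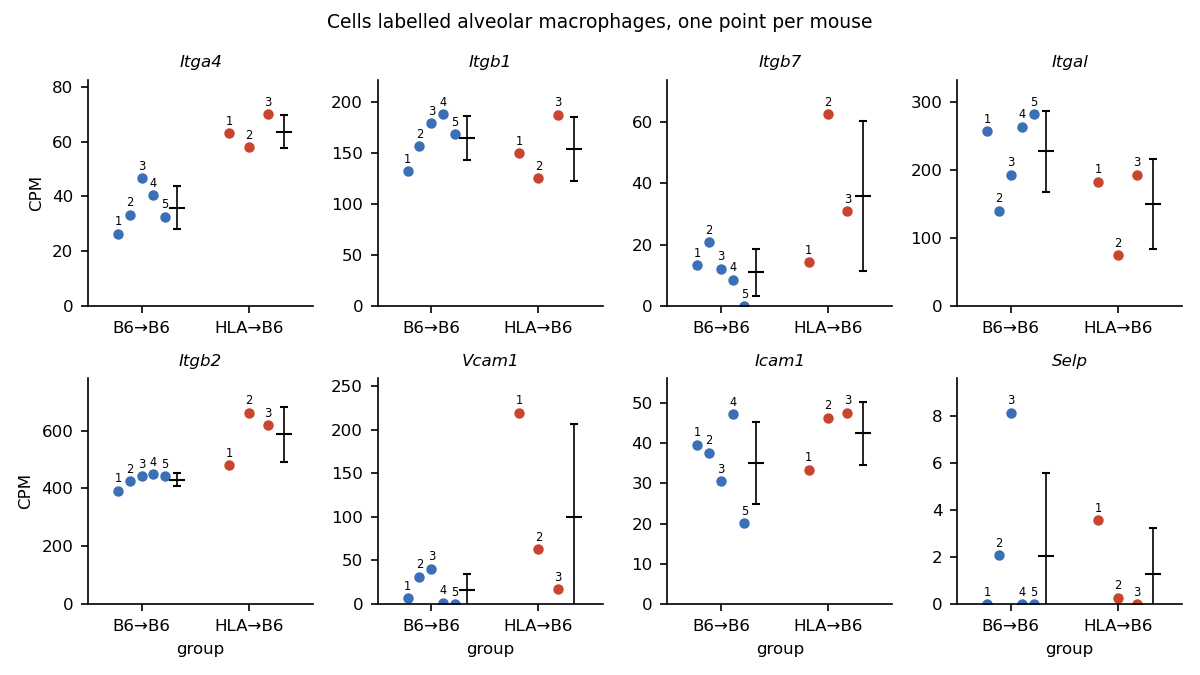
Level (CPM) of members in cells labelled alveolar macrophages, one point per mouse with its replicate number, B6→B6 (n = 5) beside HLA→B6 (n = 3), with lines for mean ± SD cut at 0. Itga4 and Itgb2 have no overlap between the groups, whereas for Itgb7 and Vcam1 at least 1 HLA→B6 mouse lies among the controls.

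The population with this label was not the same in both groups. Summed CPM of the markers of alveolar macrophages (Marco, Chil3, Ear2 and Fabp4) was 8370 to 10576 in B6→B6 mice and 492 to 4174 in HLA→B6 mice. Summed markers of monocytes were at 70.4 to 413 and 316 to 612, those of neutrophils at 36.3 to 148 and 95.02 to 523, and those of T cells at 6.59 to 50.8 and 11.2 to 49.0, in the same order. Endothelial markers were at 4.18 to 81.4 and 14.4 to 51.2, the list Car4, Gpihbp1 and Kit at 391 to 738 and 9.26 to 46.2, and red cell markers at 347 to 11937 and 0.711 to 403. Cells with a UMI of at least 2 of the 4 alveolar macrophage markers made up 42.6 to 93.4% of the labelled cells in B6→B6 mice and 12.5 to 45.9% in HLA→B6 mice.

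Restricted to these 1380 of 2494 cells, a choice made after the data were seen, Itga4 and Itgb2 kept their direction and their calls. The log2 fold change of Itga4 was 1.35 (SE 0.31, edgeR adjusted p = 0.0226) and that of Itgb2 was 0.94 (SE 0.20, adjusted p = 0.0147), with 310 of 4933 genes called. Itga4 was at 20.03 to 40.5 CPM in B6→B6 mice and 77.6, 39.2 and 88.5 in HLA→B6 mice, so HLA→B6 2 lay within the control range. Itgb2 was at 393 to 452 against 504, 720 and 803 CPM, without overlap. Itgb7 and Vcam1 fell below the filter on low counts there. In the cells with fewer than 2 markers, Itga4 was at 40.2 to 333 CPM (median 62.1) in B6→B6 mice. It was at 53.9 to 61.2 CPM (median 55.2) in HLA→B6 mice, so no rise was seen in these cells. The highest B6→B6 value came from 12 cells. Itgb2 was at 200 to 509 CPM there in B6→B6 mice and 465 to 653 in HLA→B6 mice, with overlap. These remaining cells were not tested.

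Vcam1 in particular lay outside the cells with these markers. Of its 588 UMIs in labelled alveolar macrophages, 27 (4.59%) were in cells with at least 2 markers, which held 49.9% of all UMIs of the population. The corresponding share was 19.7% for Itgb7, 40.5% for Itga4, 45.2% for Itgb2 and 76.7% for Itgal. In the cells with fewer than 2 markers, Vcam1 was at 37.2, 103, 140, 16.1 and 0 CPM in B6→B6 1 to 5 and at 353, 68.5 and 30.1 in HLA→B6 1 to 3. HLA→B6 1 alone was above all controls in these cells. In the cells with at least 2 markers it was at 0 to 0.953 CPM in B6→B6 mice, from 2 UMIs in all, and at 14.4, 31.7 and 0 in HLA→B6 mice, from 25 UMIs. The split by markers also depends on depth, and the cells with fewer than 2 markers were shallow in some mice only. They were 69 cells with 53744 UMIs in B6→B6 1, beside 90 cells with 249600 UMIs that had at least 2 markers. In B6→B6 3 they were 50 cells with 143363 UMIs, and in HLA→B6 2 they were 450 cells with 3137015. The part of the cell makeup and of depth in the differences of Vcam1 and Itgb7 was not tested.

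T cells held 6 members with enough counts, and 0 passed by the edgeR test, on a background of 0.0698% of 7164 genes. Itga4 was at 145, 109, 150, 57.9 and 148 CPM in B6→B6 1 to 5 and at 183, 198 and 172 in HLA→B6 1 to 3. The groups did not overlap, B6→B6 4 being the lowest, and the log2 fold change of 0.59 (SE 0.28) did not pass (edgeR adjusted p = 0.667). Itgb1 was at 151, 268, 201, 130 and 161 against 291, 250 and 254 CPM. B6→B6 2 lay among the HLA→B6 mice, and the log2 fold change was 0.50 (SE 0.21, unadjusted p = 0.0335, edgeR adjusted p = 0.604). Itgb7 pointed the other way, at 374, 577, 401, 166 and 403 against 327, 261 and 286 CPM, with B6→B6 4 below every HLA→B6 mouse and a log2 fold change of -0.44 (adjusted p = 0.851).

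B cells had 6 members tested, 0 past the edgeR threshold and a background of 0.117% of 6001 genes. Itgb1, which the study names as a marker of a cluster of B cells, was at 30.8, 13.0, 33.9, 28.9 and 42.7 CPM in B6→B6 1 to 5 and at 129, 87.4 and 22.6 in HLA→B6 1 to 3. HLA→B6 1 and 2 were above all controls and HLA→B6 3 was within their range. The log2 fold change was 1.40 (SE 0.41, unadjusted p = 0.00355, edgeR adjusted p = 0.605). Without HLA→B6 3 it was 1.79, with an adjusted p of 0.0170, and the adjusted p was 0.000192 when no filter on low counts was set.

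Most Itgb1 of B cells came from 1 cluster. B cell cluster 1 held 159 of the 231 Itgb1 UMIs of B cells (68.8%) with 18.1% of their UMIs, and the pooled level was 217 CPM there against 18.8 in the cells of cluster 0. This cluster was described with Itgb1 as one of its genes, so its level is no independent evidence. Relative to the number of cells labelled B cells, cluster 1 came to 8.62, 8.33, 5.95, 3.38 and 1.68% in B6→B6 1 to 5. The values were 18.1, 21.6 and 1.72% in HLA→B6 1 to 3. The clusters were drawn from B cells and plasma cells together, so this is a ratio and not a share of B cells. HLA→B6 1 and 2 were the highest in this ratio and in Itgb1, whereas among the B6→B6 mice the lowest ratio went with the highest Itgb1. Within cluster 1, Itgb1 was at 47.9 and 187 CPM in B6→B6 2 and 3 and at 328 and 176 in HLA→B6 1 and 2, the only mice with 10 cells. The groups overlapped, and the log2 fold change of 1.19 (SE 0.51) had an edgeR adjusted p of 0.444. Without B6→B6 3 the adjusted p was 0.00657 and without HLA→B6 2 it was 0.00695, each of which leaves a lone mouse in its group that is assumed to vary like the others. Within cluster 0, Itgb1 was at 0, 5.43, 10.8, 18.7 and 21.8 against 36.2, 23.7 and 16.8 CPM and was too low to be tested. The background was 0% of 2206 genes in cluster 1 and 0% of 4871 in cluster 0, with 220 and 154 genes at an unadjusted p under 0.05 by edgeR and 5 and 1 called by DESeq2.

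**Figure D3:**
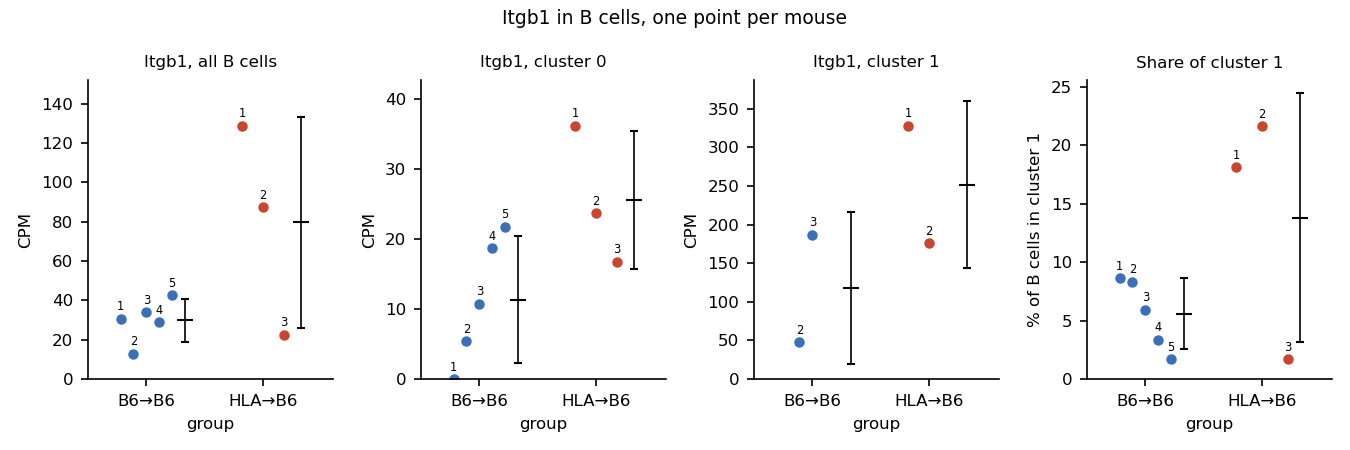
Itgb1 in B cells by mouse, as CPM of the summed counts in all B cells and in B cell clusters 0 and 1. The last panel gives the cells of cluster 1 relative to the number of cells labelled B cells (%). HLA→B6 1 and 2 are high in Itgb1 of all B cells and in this ratio, whereas HLA→B6 3 lies with the 5 B6→B6 mice in both.

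Structural cells had 6 members tested and 0 past the edgeR threshold, on a background of 0.604% of 8109 genes. Vcam1 was at 172, 104, 80.3, 53.2 and 8.16 CPM in B6→B6 1 to 5 and at 53.5, 22.2 and 5.90 in HLA→B6 1 to 3. The groups overlapped, with B6→B6 5 and HLA→B6 3 the lowest mice. Cluster 4, which carried red cell genes, held 252624 of the 367865 structural UMIs in B6→B6 5 and 490251 of the 846940 in HLA→B6 3. The part of this makeup in the low CPM of these mice was not tested. The log2 fold change of -1.46 (SE 0.47, unadjusted p = 0.00900) had an edgeR adjusted p of 0.283. When cluster 5 was left out, a choice made after the data were seen, the direction turned, to 0.57 (adjusted p = 0.900).

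Cluster 5 comprised 248 cells and held 372 of the 481 structural Vcam1 UMIs (77.3%) and 37 of the 46 Selp UMIs (80.4%) with 4.96% of all structural UMIs. It made up 3.09 to 10.4% of structural cells in B6→B6 mice and 3.02 to 4.40% in HLA→B6 mice. In this cluster, compared after the data were seen, Vcam1 was at 1395, 916, 1707 and 854 CPM in B6→B6 1 to 4 and at 644, 354 and 135 in HLA→B6 1 to 3. All 4 controls were above all HLA→B6 mice, B6→B6 5 having fewer than 10 of these cells. The log2 fold change was -1.34 (SE 0.37, edgeR adjusted p = 0.0392), and the exact two-sided permutation test over mice gave p = 0.0571 where 35 arrangements allow no less than 0.0286. The background was 9.02% of 721 genes, and 1 of the 3 members tested passed. The call was lost without B6→B6 2 (adjusted p = 0.0539), B6→B6 3 (0.0529), HLA→B6 2 (0.0958) or HLA→B6 3 (0.0624), with the set of libraries linked by barcodes as a block (0.121), and with at least 20 cells per mouse (0.102). The sums rest on few cells, since 1 cell gave 33 of 76, 14 of 27, 38 of 71 and 34 of 93 Vcam1 UMIs in B6→B6 1 to 4. In HLA→B6 1 to 3 it gave 30 of 90, 4 of 10 and 1 of 3. At 500 UMIs per cell, Vcam1 was found in 27.3, 23.2, 29.1 and 15.0% of the cells of B6→B6 1 to 4. The shares were 14.6, 17.2 and 8.75% in HLA→B6 1 to 3 and overlapped with those of the controls.

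Selp of cluster 5 was also lower on average in HLA→B6 mice, with overlap between the groups, whereas Icam1 was not lower on average. The mean of Selp was 121 CPM in B6→B6 mice and 48.2 in HLA→B6 mice, on 30 and 7 UMIs. Selp in cluster 5 was at 220, 33.9, 120 and 110 CPM in B6→B6 mice and 28.6, 70.8 and 45.1 in HLA→B6 mice. B6→B6 2 lay among the HLA→B6 mice, and the exact permutation p was 0.171, Selp being too low for the edgeR test. So few counts in 7 mice cannot settle whether Selp shared the difference of Vcam1. Icam1 was at 385, 204, 313 and 285 against 279, 531 and 316 CPM, with a log2 fold change of 0.27 (edgeR adjusted p = 0.697). In the same cluster the summed endothelial markers were at 2205 to 4256 CPM in B6→B6 mice and 4803 to 5548 in HLA→B6 mice, and the venous markers at 2111 to 4353 and 2161 to 3022. Their part in the level of Vcam1 was not tested.

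**Figure D4:**
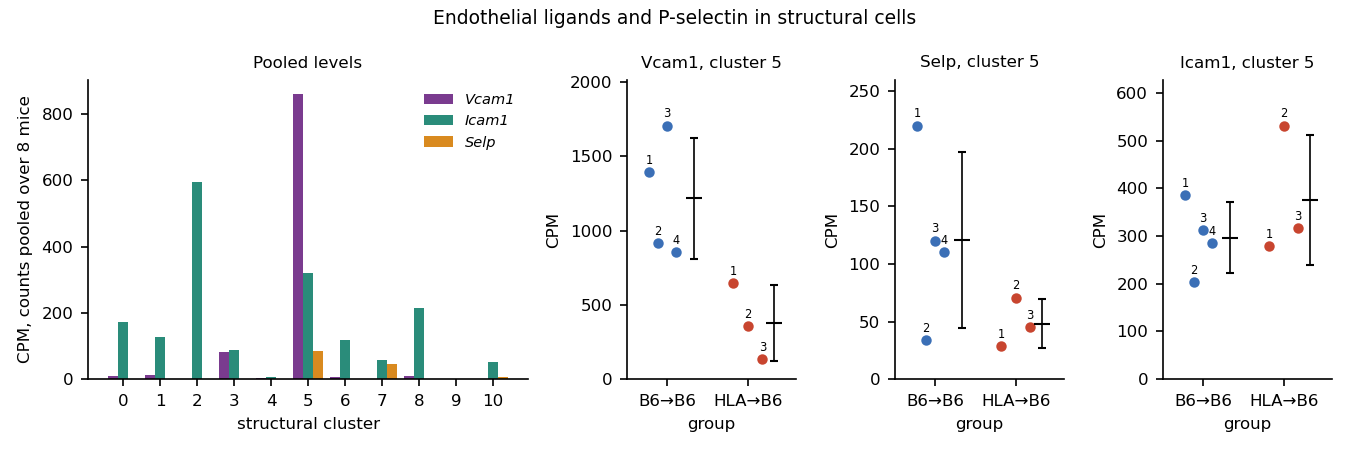
Bars give Vcam1, Icam1 and Selp as CPM of counts pooled over the 8 mice in each structural cluster, and the other panels give the CPM of each gene in cluster 5 by mouse, B6→B6 (n = 4) beside HLA→B6 (n = 3), with lines for mean ± SD. Vcam1 of cluster 5 separates the groups, at 854 or more in 4 B6→B6 mice and at 644 or less in 3 HLA→B6 mice.

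Icam1 over all structural cells was at 394, 235, 257, 154 and 59.8 CPM in B6→B6 mice and 148, 238 and 94.5 in HLA→B6 mice. The groups overlapped, with a log2 fold change of -0.40 (edgeR adjusted p = 0.788). Cluster 2 held 633 of the 1568 structural Icam1 UMIs (40.4%) with 12.2% of the UMIs, and made up 10.5 to 24.9% of structural cells in B6→B6 mice and 0.701 to 7.47% in HLA→B6 mice. Within this Car4-rich cluster Icam1 was at 1359, 663, 575, 468 and 344 against 576, 469 and 721 CPM. B6→B6 1 was far above the rest, and the log2 fold change was -0.23 (adjusted p = 0.879). In cluster 0 it was 0.50 (adjusted p = 0.765) and in cluster 1 it was 0.26 (0.963).

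The backgrounds were 0.686% of 3645 genes in cluster 0, 1.02% of 2348 in cluster 1, 0.243% of 1643 in cluster 2 and 0.317% of 1260 in cluster 3, and 0 members passed in any of them by edgeR. Itgb1 had log2 fold changes between 0.06 in cluster 3 and 0.41 in cluster 2. Vcam1 of cluster 3 was at 273, 141 and 18.3 CPM in the 3 B6→B6 mice and 89.0, 0 and 0 in the 3 HLA→B6 mice with enough cells, too low for the test. Outside cluster 5, cluster 3 held 56 structural Vcam1 UMIs, cluster 0 held 25, cluster 1 held 19, and clusters 4, 6 and 8 held 6, 2 and 1.

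In the remaining leukocytes 0 members passed by edgeR, and Vcam1 was too low to be tested. Its UMIs in B6→B6 and HLA→B6 mice were 0 and 6 in monocytes, 0 and 7 in myeloid cells, 0 and 2 in NK cells, and 2 and 2 in leukocytes. The background was 0% of 2987 genes in NK cells, 0.023% of 4352 in monocytes, 0% of 4395 in myeloid cells and 0% of 913 in leukocytes. In NK cells, myeloid cells and leukocytes, where no gene at all was called, 97, 215 and 47 genes had an unadjusted p under 0.05, and DESeq2 called 0, 25 and 2. NK cells, on average the richest in Itga4 and Itgb2, had log2 fold changes between -0.07 and 0.08 for all 6 members tested. Monocytes had values between -0.27 (Itgb7) and 0.23 (Icam1), each with an adjusted p of 0.999.

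Myeloid cells were the exception in size. Itgb7 was at 411, 489, 449, 142 and 410 CPM in B6→B6 1 to 5 and at 231, 231 and 168 in HLA→B6 1 to 3. B6→B6 4 was the lowest of all mice, and the other controls were above all HLA→B6 mice. The log2 fold change of -0.84 (SE 0.38) had an unadjusted p of 0.0462 and an edgeR adjusted p of 0.999. Without B6→B6 4 it was -1.07, with an adjusted p of 0.0451. Itgb1 (0.63) and Icam1 (0.63) pointed the other way in these cells without passing.

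**Figure D5:**
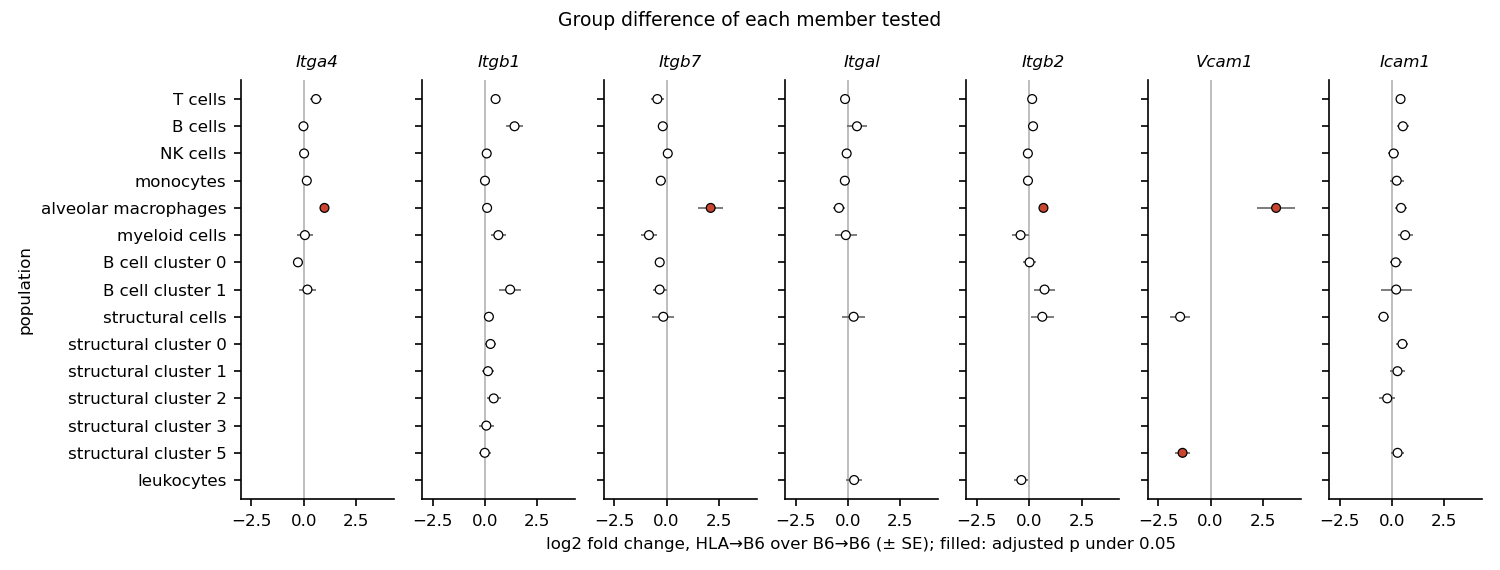
Log2 fold change, HLA→B6 against B6→B6, of each member tested in each compared population, with bars for the standard error. Filled points passed the threshold (edgeR, adjusted p under 0.05), namely Itga4, Itgb2, Itgb7 and Vcam1 in alveolar macrophages and Vcam1 in structural cluster 5.

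Rare cell types could be given as pooled values only, with intervals that cover counting error and not the spread between mice. Itgb7 in mast cells was at 502 CPM (95% Poisson interval 358 to 683) in pooled B6→B6 cells and 452 (300 to 653) in pooled HLA→B6 cells. Icam1 in type 2 pneumocytes was at 204 CPM (139 to 290) in 22 cells of B6→B6 mice and 474 (326 to 666) in 10 cells that all came from HLA→B6 1.

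Other genes of leukocyte adhesion were read from 7 lists of 73 genes (other integrin alpha and beta chains, L-selectin and selectin ligands, enzymes that build those ligands, other adhesion ligands, proteins that activate integrins, and genes of venous or activated endothelium), of which 71 were in the counts. In alveolar macrophages 31 of them were tested, 2 rose and 5 fell, beside 12.3% of all genes called in either direction, with a median log2 fold change of 0.02 beside -0.03 for all genes. Itgb5, which pairs with Itgav to bind vitronectin, rose by 1.47 on the log2 scale (SE 0.20, edgeR adjusted p = 0.00392), from 67.9 to 117 CPM in B6→B6 mice to 190 to 204 in HLA→B6 mice. Spp1, which encodes the integrin ligand osteopontin, rose by 1.44 (SE 0.24, adjusted p = 0.00719). Ch25h (-2.87), Cd24a (-2.27), Rassf5 (-1.64), Cd44 (-1.03) and Stk4 (-0.76) fell. Cd44 is a hyaluronan receptor that also carries selectin ligands, Rassf5 is the adaptor through which Rap1 activates LFA-1, and Stk4 is a kinase bound by Rassf5. Cd44 was at 1616 to 1958 CPM in B6→B6 mice and 318 to 1063 in HLA→B6 mice, in the cells whose markers also differed.

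In structural cluster 5, 17 list genes were tested and 2 rose, a share close to the 9.02% of all genes called there. Itga1, the alpha chain of a collagen receptor, was at 170 to 289 CPM in B6→B6 mice and 487 to 673 in HLA→B6 mice (log2 fold change 1.15, SE 0.27, edgeR adjusted p = 0.0210). Icam2, an LFA-1 ligand of resting endothelium, was at 441 to 679 and 886 to 1128 CPM (0.92, SE 0.23, adjusted p = 0.0252). Both pointed opposite to Vcam1 in the same cells. In the other 13 comparisons 0 list genes passed by edgeR, among 11 tested in leukocytes to 44 in structural cells.

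Over 21 populations, the genes whose level was most like that of a member were Ilk (Pearson r = 0.937), Rdx (0.934) and Capn2 (0.923) for Itgb1. For Itga4 they were Psd4 (0.952), Epsti1 (0.932) and Rassf5 (0.930), and for Itgb7 Rgs14 (0.944), Il16 (0.936) and Lrmp (0.906). Itgal was most like Hcls1 (0.907), Vav1 (0.897) and Ccdc88b (0.896), and Itgb2 most like Il17ra (0.912), Ptprc (0.903) and Cd84 (0.899). Among the ligands, Vcam1 was most like P2ry2 (0.814), Nuak1 (0.795) and Mmp2 (0.778), and Icam1 most like Armc5 (0.924), Pdlim2 (0.917) and Plpp6 (0.908). Selp was most like Vwf (0.732), Slc6a2 (0.716) and Amigo2 (0.709), on few counts. The correlations are of log2(CPM + 1) of pooled counts, and the points share libraries and differ in depth.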

How the data were processed

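The deposited counts are UMIs per gene and cell, which the authors made with Cell Ranger on mm10 from droplet 3′ libraries of 8 grafts (10000 cells loaded per graft). They state that barcodes under 200 UMIs and genes in under 3 cells were left out and that SoupX removed free RNA, without saying whether the deposited table is the corrected one. The cell labels come from Seurat clustering, clustifyr and manual annotation. Each graft is 1 mouse and 1 library, so p-values measure the spread between mice. All cells were kept, 256 of which Scrublet marked as doublets, and 0 columns of values were left unused.

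Counts were summed per mouse and population (at least 10 cells per mouse, at least 2 mice per group) and compared with edgeR 4.0.16 (TMM, filterByExpr with a minimum count of 10, quasi-likelihood F test, Benjamini-Hochberg over all genes, threshold 0.05) in R 4.3.3 with limma 3.58.1. The fit was tested on simulated data. DESeq2 1.42.0 was an alternative. Levels, shares and correlations were computed in Python 3.11.15 (numpy 2.4.6, pandas 2.3.3, scipy 1.17.1, scanpy 1.11.5, matplotlib 3.10.9). Shares of cells with a UMI were set to 1000 UMIs per cell, or 500 in structural cells, by the mean of random draws. Exact two-sided permutation tests ran over mice. A median of 1356 to 1948 UMIs per cell leaves most cells without a UMI of these genes, so sums were used. Intervals and floors cover counting error only.

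The members and lists were chosen with earlier results of these data known. The text names all members, per comparison, of the list genes called, up to 5 that rose most and up to 5 that fell most, and 3 genes most like each member (at least 100 UMIs; Selp itself had fewer). Structural cluster 5, the cells with at least 2 alveolar macrophage markers, and the difference in Vcam1 between alveolar macrophages and structural cells were added after the data were seen.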

Additional observations from a re-analysis of the deposited data

Results flagged for a closer look

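Itgal in T cells of B6→B6 1 was 68.4 CPM, far below the other 4 B6→B6 mice at 114 to 119 CPM. Itgb7 in myeloid cells of B6→B6 4 was 142 CPM, far below the other B6→B6 mice at 410 to 489 CPM, and the comparison changes without this mouse as given above. Among 58 groups of B6→B6 mice that were checked for a sample standing apart, these 2 were found, where chance alone marks about 1 in 20.

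The group difference of Vcam1 was not the same in alveolar macrophages and in structural cells. The log2(CPM + 1) in alveolar macrophages minus that in structural cells averaged -2.93 in B6→B6 mice and 1.62 in HLA→B6 mice, a difference of 4.54. The highest B6→B6 mouse was at -0.963 and the lowest HLA→B6 mouse at 1.37, and the exact two-sided permutation test gave p = 0.0179, the smallest that 56 arrangements allow. The contrast was chosen after the values were seen. The makeup of both populations differed between the groups, as the marker sums and cluster shares above show, and its part in this difference was not tested.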

How the results depend on the processing

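Of the refitted log2 fold changes of named members, 207 kept their direction and their side of the threshold, 21 lost the threshold, 6 gained it and 3 turned. Vcam1 in structural cells turned to 0.57 without cluster 5, Itgb1 in alveolar macrophages to -0.030 without HLA→B6 3 (range -0.030 to 0.19 over the mice left out), and Itgal in alveolar macrophages to 0.028 in cells with at least 2 markers. Itgal passed with the library set as a block (-0.65, adjusted p = 0.0485). The cause was not tested. All 85 levels stayed within the spread between mice, and the 14 shares moved when the thinning was changed.

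The same replicate numbers in both groups do not mark a shared litter or day, and correlations of same-numbered mice had both signs (0.285, 0.0422 and -0.373 in structural cells). With the replicate block, 0 members passed in alveolar macrophages (Itga4 0.0584, Itgb2 0.0631, Itgb7 0.102, Vcam1 0.261), where 283 genes were called. The block gave 10 genes in structural cells, 39 in T cells, 27 in B cells, 8 in NK cells, 10 in monocytes, 31 in myeloid cells, 1 in leukocytes, 64, 11, 0 and 34 in structural clusters 0, 2, 3 and 5, and 11 in B cell cluster 0.

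Genes called by DESeq2 were 94 in structural cells, 37 in T cells, 2 in B cells, 15 in monocytes, 25 in myeloid cells, 2 in leukocytes, 10, 14, 10 and 27 in structural clusters 0 to 3, and 1 and 5 in B cell clusters 0 and 1. Without a filter they were 130 in structural cells, 61 in T cells, 73 in B cells (with 1 member), 38 in NK cells, 98 in monocytes, 1083 in alveolar macrophages, 153 in myeloid cells, 26 in leukocytes, 115, 89, 59, 50 and 39 in structural clusters 0, 1, 2, 3 and 5, and 20 in B cell cluster 0. With the library set as a block they were 39 in T cells, 5 in monocytes, 1253 in alveolar macrophages, 15 in myeloid cells, 11 and 30 in structural clusters 2 and 5 (with 0 members in cluster 5), and 1 and 27 in B cell clusters 0 and 1. Vcam1 of cluster 5 had an adjusted p of 0.121 there.

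Without clusters 4, 6, 7 and 10, 79 genes were called in structural cells. Without shared barcodes there were 2 in monocytes and 0 in structural cluster 3, and without doublets 3 in monocytes and 5 in B cell cluster 1. With at least 20 cells per mouse there were 38, 1, 10, 27 and 20 in structural clusters 0, 1, 2, 3 and 5, with 0 members in cluster 5. In alveolar macrophages with at least 2 markers there were 310, with 2 members.

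With each mouse left out in turn, genes called ranged from 10 to 71 in structural cells, 0 to 24 in T cells, 0 to 16 in B cells, 0 to 4 in NK cells, 1 to 6 in monocytes, 180 to 829 in alveolar macrophages, 0 to 27 in myeloid cells and 0 to 8 in leukocytes. They ranged from 2 to 52, 14 to 53, 2 to 14, 0 to 27 and 26 to 69 in structural clusters 0, 1, 2, 3 and 5, and from 0 to 3 and 0 to 69 in B cell clusters 0 and 1. Members called ranged from 1 to 4 in alveolar macrophages and from 0 to 1 in B cells, myeloid cells, B cell cluster 1 and structural cluster 5.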
